A study of Mus musculus with 12 samples.

Results

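The amino acid transporter solute carriers were examined as a set of 64 protein-coding genes among 48448 genes of the table. They were chosen by gene symbol alone, as every member of the Slc1, Slc3, Slc6, Slc7, Slc36, Slc38 and Slc43 families, and the choice used no measured value. Of the 64, 63 encode carriers or their subunits, and Slc7a6os matched the symbol pattern without being a carrier. The RNA came from the colon of C57BL/6 mice in a model of colitis-associated cancer, in 4 groups of 3 libraries. Adjacent colon epithelium and colon tumours were taken from mice with a floxed Synbindin allele (flox), and the same tissues from mice that lack it in the intestinal epithelium (ΔIEC). The Trappc4 gene encodes Synbindin, which belongs to the TRAPP complexes that act in vesicle transport at the Golgi. What drives the deletion and how old the mice were was not stated in these sources, and the deletion leaves other cell types of the tissue untouched by design. The study's title describes scraped epithelium, whereas the protocol in the labels describes dissected tumours and adjacent tissue.

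Amino acid carriers of the plasma membrane include exchangers, which swap an amino acid inside the cell for another outside, sodium- or proton-coupled carriers, which concentrate amino acids against a gradient, and carriers that let them pass along it. Several Slc7 carriers are light chains that reach the membrane only when bound to a heavy chain of the Slc3 family. In the colon these carriers feed the epithelium and take up what bacteria and secretions leave in the lumen. In tumours they are known for supplying leucine, glutamine and cystine to growing cells. Some members carry related solutes instead, such as creatine, taurine or serotonin.

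Values are FPKM, fragments per length of transcript and size of library, so levels of different genes are compared per length. The depth of the libraries is not known from such values. The libraries held a summed FPKM between 534806 and 821487, with 14757 to 15893 genes at 1 or more. Libraries of a group correlated at 0.912 to 0.962 across genes. The targeted gene, Trappc4, had a mean of 17 ± 0.285 FPKM (SD, n = 3) in adjacent tissue of flox mice and 11.1 ± 1.3 in that of ΔIEC mice, and 19 ± 1.73 and 11.3 ± 1.39 in their tumours, with no overlap between genotypes. Of the 6 adjacent libraries, 3 stood apart. Flox adjacent 1 and ΔIEC adjacent 2 and 3 had summed FPKM of 2447, 1679 and 2060 for 8 markers of absorptive colonocytes, against 6411 to 9623 in the other adjacent libraries. The same 3 libraries had 176, 247 and 205 for 6 fibroblast markers, against 44.6 to 82.2. Tumours had 111 to 251 for the colonocyte markers and 276 to 581 for the fibroblast markers. All 10 epithelial markers were present in every group, summing to 7186 to 12256 in adjacent tissue and 4991 to 7260 in tumours. Goblet cell markers, 7 genes, summed to 19280 to 52693 in adjacent tissue and 1779 to 5640 in tumours. The part of cell composition in the results below was not tested, and in such bulk tissue fewer cells of a type and less RNA per cell cannot be told apart.

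Tumours differed from adjacent tissue in many carriers, and genotypes in none that passed the test. Of the 64 genes, 37 reached an FPKM of 1 in at least 3 libraries and were tested. In flox mice 17 of the 37 differed at a limma adjusted p below 0.05, or 45.9%, 9 of them higher and 8 lower in tumours. Of all 16970 genes tested, 36.3% were called, 16.6% higher and 19.7% lower. In ΔIEC mice 12 of the 37 were called (32.4%), 4 higher and 8 lower, against 29.4% of all genes, 13.9% higher and 15.5% lower. The members' median difference on the log2(FPKM + 1) scale was 0.07 in flox and -0.02 in ΔIEC mice, and that of all genes -0.01 and -0.03. By libraries that do not overlap, 12 members lay higher and 9 lower in flox tumours, where 26.4% and 27.1% of all genes did so. In ΔIEC tumours 8 lay higher and 8 lower, where 20.8% and 22.9% of all genes did. The members' counts were near those shares. In the plot of tumour against adjacent differences the cystine exchanger Slc7a11 had the highest value and Slc3a1 and Slc6a14 the lowest in both genotypes.

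**Figure D1:**
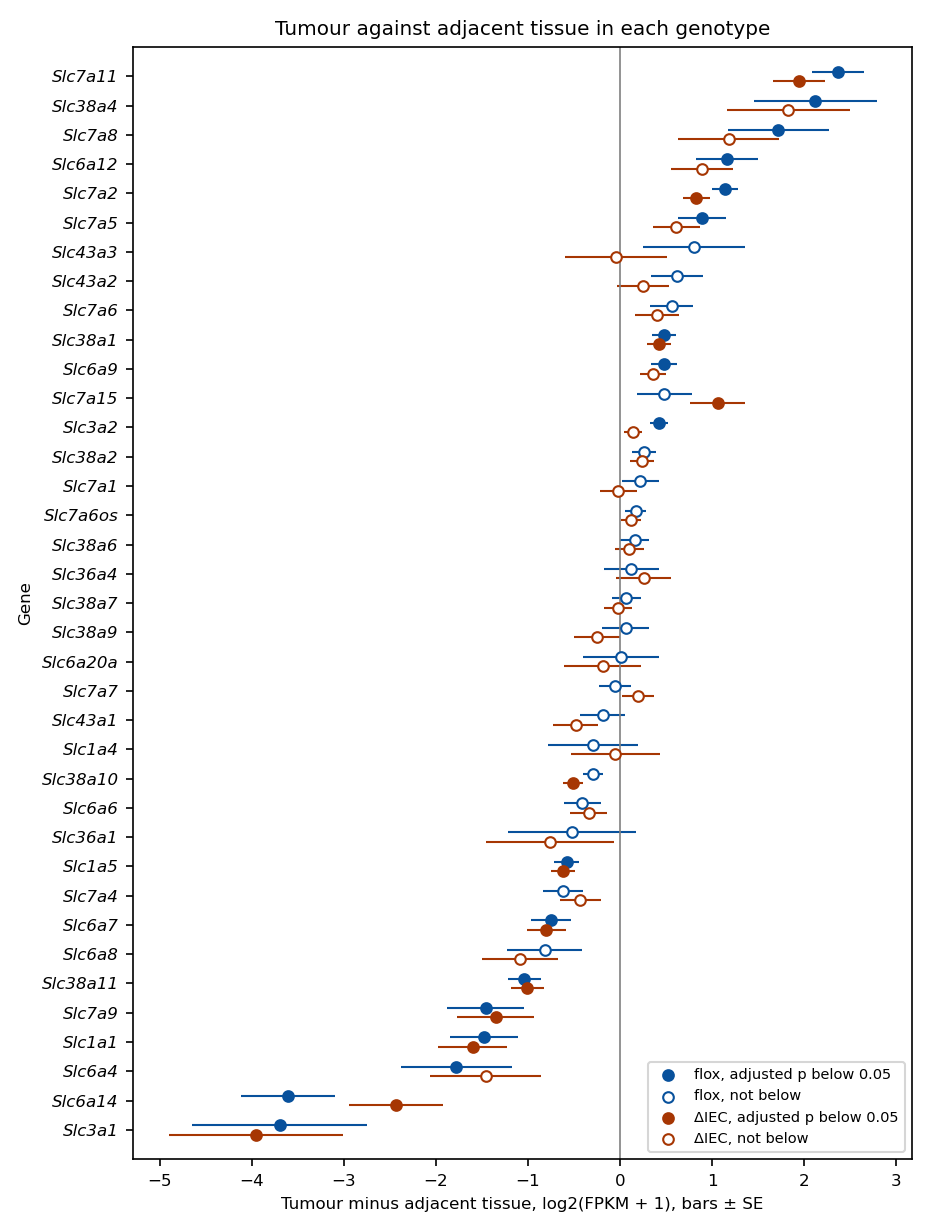
Difference between tumour and adjacent tissue on the log2(FPKM + 1) scale for the 37 tested genes, with flox in blue and ΔIEC in brown, bars ± SE and filled points for a limma adjusted p below 0.05. Filled points number 17 in flox and 12 in ΔIEC mice, and the values run from 2.37 for Slc7a11 to -3.70 for Slc3a1 in flox mice.

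The scale of the values bears on the balance of rises and falls. Protein-coding genes summed to 440002 to 546160 FPKM in adjacent libraries and 355684 to 394917 in tumours. A fit of the protein-coding genes alone, rescaled to a common total, tested 13418 genes, with a median of 0.40 in flox and 0.27 in ΔIEC mice. In it 16 of the 37 members were called higher and 5 lower in flox tumours, and 11 higher and 6 lower in ΔIEC tumours. Of the 13418 genes, 5910 were called higher and 1481 lower in flox tumours. In ΔIEC tumours 4168 of them were called higher and 1265 lower. The share of calls that were higher went from 52.9% to 76.2% and from 33.3% to 64.7% for members. Over the 13274 protein-coding genes tested on both scales, it went from 46.1% to 79.8% in flox and from 48.8% to 76.6% in ΔIEC mice, and their median in flox mice from 0.01 to 0.39. Calls that were lost in this way were those of Slc1a5, Slc6a4 and Slc6a7 in flox mice and of Slc1a5 and Slc38a10 in ΔIEC mice. Calls gained in flox mice were those of Slc38a2, Slc38a6, Slc38a7, Slc43a2, Slc7a1, Slc7a6 and Slc7a6os. In ΔIEC mice Slc38a2, Slc38a4, Slc3a2, Slc6a12, Slc6a9, Slc7a5 and Slc7a6os were gained. Relative to the median of the 13418 genes, Slc7a11 stood at 2.32 and 1.93 and Slc6a14 at -3.57 and -2.39 in flox and ΔIEC mice, against 2.38, 1.97, -3.60 and -2.40 relative to the median of all 16970 genes without rescaling.

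In adjacent tissue the RNA of the set was led by few genes. The 64 genes summed to 817.5 ± 66.1 FPKM in adjacent tissue of flox mice (SD, n = 3), to 777.2 ± 157.2 in that of ΔIEC mice, and to 502.9 ± 12.1 and 499 ± 55.4 in the tumours. Slc6a14 alone held 20.9% to 35.2% of that sum in flox and 11.9% to 28.9% in ΔIEC adjacent libraries, and 2.59% to 9.05% in tumours. Without it the sums were 578.3, 601.8, 484.2 and 468.5 FPKM in flox adjacent, ΔIEC adjacent, flox tumour and ΔIEC tumour libraries. Protein-coding genes as a whole also summed to less in tumours, as given above. Of that total the 64 genes held 0.157% to 0.166% in flox adjacent and 0.126% to 0.144% in flox tumour libraries. In ΔIEC mice they held 0.138% to 0.182% and 0.117% to 0.144%, which overlap. The sums without Slc6a14 do not show a fall relative to protein-coding RNA. In both adjacent groups the order of means was Slc6a14, the creatine carrier Slc6a8, the glutamine exchanger Slc1a5, the taurine carrier Slc6a6 and the glutamine carrier Slc38a2. In both tumour groups Slc6a8, Slc38a2, Slc6a6, Slc1a5 and the heavy chain Slc3a2 came first. Neighbours in these orders were mostly within their spread: in flox tumours the first 4 means were 60.9 ± 4.9, 54.3 ± 3.41, 49.1 ± 3.39 and 47.7 ± 7.34 FPKM.

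**Figure D2:**
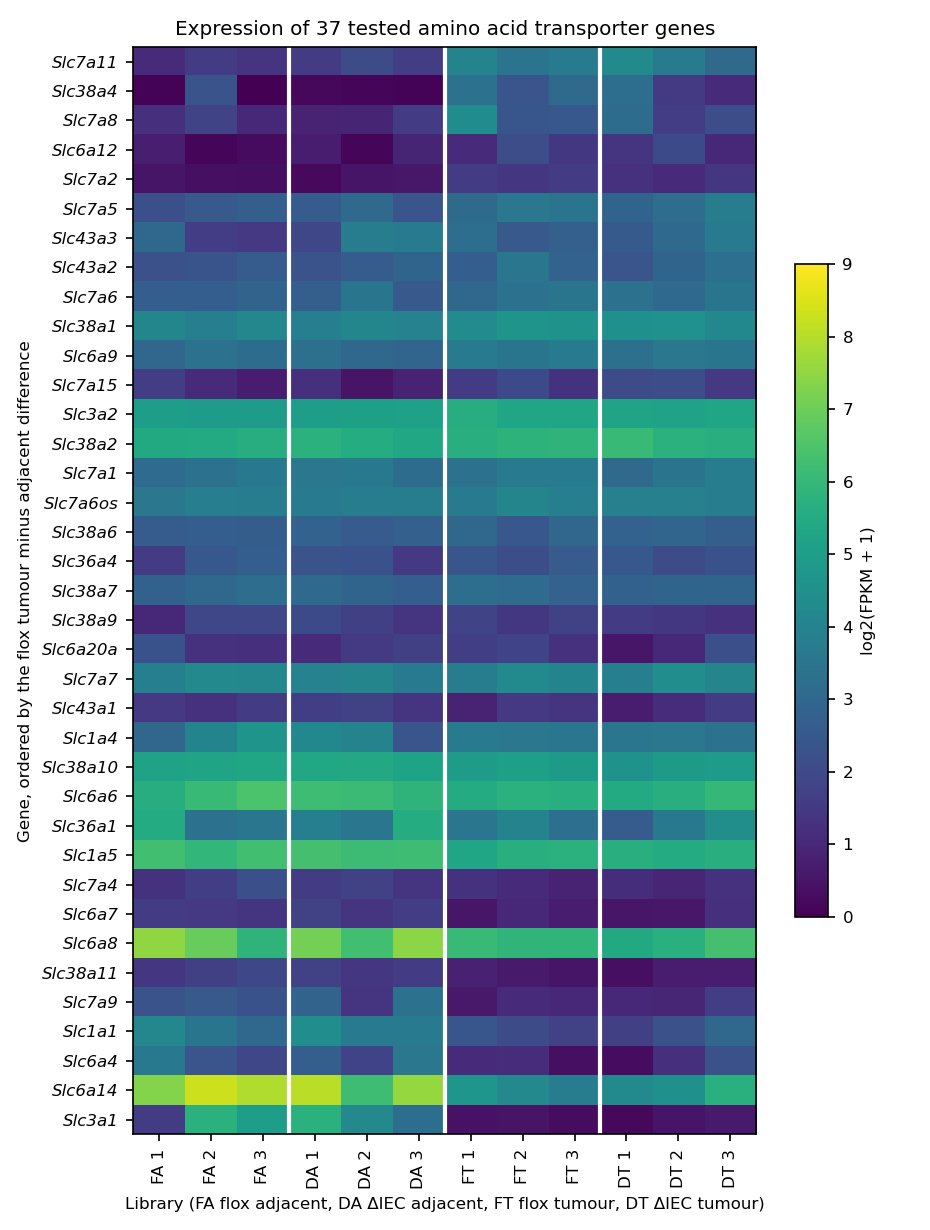
Heat map of log2(FPKM + 1) for the 37 tested genes in 12 libraries, ordered by the difference between flox tumours and flox adjacent tissue. Slc6a14 reached 314.5 FPKM in flox adjacent 2 and 12.7 in flox tumour 3, and Slc7a11, the gene with the highest difference, lay between 1.14 and 3.24 FPKM in adjacent libraries and between 7.58 and 18.5 in tumours.

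The heavy chain Slc3a2, also known as CD98, carries light chains for leucine, arginine and cystine exchange to the membrane. Values are given here and below for replicates 1, 2 and 3 in turn. Slc3a2 was at 32.4, 29.7 and 29.7 FPKM in flox adjacent tissue, 32.1, 34 and 34.5 in ΔIEC adjacent tissue, 47.3, 38.4 and 38.7 in flox tumours and 37.5, 35.8 and 37.8 in ΔIEC tumours. All 6 tumour libraries lay above all 6 adjacent libraries. It rose by 0.42 ± 0.0968 (log2 difference ± SE, limma adjusted p 0.00783) in flox tumours, while in ΔIEC tumours the difference was 0.14 ± 0.0968 (limma adjusted p 0.304). The interaction, the difference between these differences, was -0.28 with a 95% interval of -0.59 to 0.02 and a limma adjusted p of 1, so the genotypes were not shown to differ. With protein-coding genes rescaled, the ΔIEC difference of Slc3a2 was 0.44 and passed (limma adjusted p 0.0294). It stood 0.18 above the median of protein-coding genes on that scale.

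Slc7a11, the light chain of the cystine/glutamate exchanger that supplies cysteine for glutathione, had the largest rise of the set in flox mice. It was at 1.14, 2.02 and 1.54 FPKM in flox adjacent and 1.95, 3.24 and 2.17 in ΔIEC adjacent tissue. Flox tumours had 15.1, 10.1 and 11.7 FPKM and ΔIEC tumours 18.5, 12.5 and 7.58. The lowest tumour library, ΔIEC tumour 3, was above the highest adjacent library, ΔIEC adjacent 2. The rise was 2.37 ± 0.282 in flox (limma adjusted p 4.53e-04) and 1.94 ± 0.282 in ΔIEC mice (limma adjusted p 0.00168), and it was called in all 12 fits that left out a library. Its main coding transcript, Slc7a11-201, also rose (2.09 and 1.68, limma adjusted p 6.91e-04 and 0.00275), from 1.17 ± 0.282 to 8.33 ± 1.81 FPKM in flox and from 1.81 ± 0.523 to 8.22 ± 2.89 in ΔIEC mice. Neutrophil markers were also higher in tumours, 5 genes summing to 1.71 to 5.48 FPKM in adjacent tissue and 124 to 569 in tumours. ΔIEC tumour 1 was the highest tumour library for both these markers and Slc7a11, and the order of the other tumour libraries differed. The part of neutrophils in the result was not tested.

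The 250 bases before the RefSeq start of Slc7a11 are printed with those of Slc6a14 and Slc3a1, because these genes had the largest rise and the largest falls in flox mice. They are from RefSeq on GRCm38.p6, 5′ to 3′ on the strand of the gene: chr3:50443614-50443863 (minus), chrX:21714650-21714899 (plus) and chr17:85028097-85028346 (plus). Capitals mark matches to TGATGNAA on either strand, the core of the C/EBP-ATF response element that is known from genes of the amino acid response.
Slc7a11: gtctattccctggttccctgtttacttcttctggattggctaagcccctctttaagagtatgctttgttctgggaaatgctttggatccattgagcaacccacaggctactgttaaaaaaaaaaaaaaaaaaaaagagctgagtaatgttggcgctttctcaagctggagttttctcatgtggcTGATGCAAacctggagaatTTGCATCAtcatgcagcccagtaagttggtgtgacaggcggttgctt
Slc6a14: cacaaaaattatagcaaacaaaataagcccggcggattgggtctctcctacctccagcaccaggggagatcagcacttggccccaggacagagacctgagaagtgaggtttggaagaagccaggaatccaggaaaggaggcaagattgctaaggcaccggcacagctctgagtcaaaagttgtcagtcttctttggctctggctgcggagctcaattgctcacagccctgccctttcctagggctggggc
Slc3a1: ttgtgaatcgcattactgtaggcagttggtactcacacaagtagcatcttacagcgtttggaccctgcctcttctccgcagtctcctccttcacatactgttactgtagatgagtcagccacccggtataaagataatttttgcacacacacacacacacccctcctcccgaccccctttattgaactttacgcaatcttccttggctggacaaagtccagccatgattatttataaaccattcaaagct
The Slc7a11 window holds 2 matches, which begin 66 and 47 bases before the start and lie on opposite strands. The motif was found in 3.91% of 27025 genes with such a window and in 3 of the 46 members that have an entry, Slc7a11, Slc7a7 and Slc6a21. Of the other motifs searched on both strands, TGACNNNGC, the core of the antioxidant response element, was in 8 of 46 members and 11.5% of genes, and the E-box CACGTG in 9 of 46 and 6.86%. Neither TGACNNNGC nor CACGTG was in the 3 windows printed. A match describes letters and is not evidence of a bound factor.

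The light chains Slc7a5 and Slc7a8, exchangers of leucine and other large neutral amino acids, were also higher in flox tumours. Slc7a5 was at 3.63, 4.76 and 5.65 FPKM in flox adjacent, 5.18, 7.46 and 4.21 in ΔIEC adjacent, 7.55, 10.9 and 9.94 in flox tumour and 6.51, 8.31 and 12.9 in ΔIEC tumour libraries. The flox groups did not overlap, whereas ΔIEC tumour 1 fell below ΔIEC adjacent 2. Slc7a5 rose by 0.89 ± 0.257 in flox mice (limma adjusted p 0.0222), with 0.61 ± 0.257 in ΔIEC mice (limma adjusted p 0.0969). The flox call was lost without flox adjacent 1 (0.75, limma adjusted p 0.0672), flox adjacent 2 (0.90, 0.0583), flox tumour 2 (0.78, 0.0741) or flox tumour 3 (0.85, 0.064), and the ΔIEC difference passed without ΔIEC adjacent 2 (limma adjusted p 0.0481). With protein-coding genes rescaled, the ΔIEC difference of Slc7a5 was 0.88 and passed (limma adjusted p 0.021). Slc7a8 was at 1.38, 2.56 and 0.99 FPKM in flox adjacent, 0.839, 0.912 and 2.05 in ΔIEC adjacent, 19.7, 4.29 and 4.54 in flox tumour and 8.08, 2.11 and 3.42 in ΔIEC tumour libraries. Flox tumour 1 stood far above the rest. The rise of Slc7a8 was 1.72 ± 0.546 in flox mice (limma adjusted p 0.0323), and it was 1.08 (0.093) without flox tumour 1, 1.67 (0.0704) without flox adjacent 1 and 1.54 (0.0981) without flox adjacent 3. In ΔIEC mice the difference was 1.18 ± 0.546 (limma adjusted p 0.129). Squamous keratinocyte markers, 6 genes, summed to 394.5 FPKM in flox tumour 1, to 349.5 in flox tumour 2, to 18.9 to 40.8 in the other tumours and to 0.84 to 4.44 in adjacent tissue; their part in the result was not tested.

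Slc7a7 and Slc7a6, light chains that also pair with Slc3a2, exchange cationic for neutral amino acids. Slc7a7 was at 13.9, 18 and 16.8 FPKM in flox adjacent, 14.8, 15.9 and 12.2 in ΔIEC adjacent, 12.9, 18.6 and 15.6 in flox tumour and 13.7, 20.2 and 15.9 in ΔIEC tumour libraries, and the groups overlapped. Its difference was -0.05 ± 0.174 in flox and 0.19 ± 0.174 in ΔIEC mice. By transcript, the coding form Slc7a7-201 rose by 0.82 (limma adjusted p 0.00712) in flox and 1.06 (0.00376) in ΔIEC mice. The most abundant coding form, Slc7a7-202, had -0.32 in flox mice (limma adjusted p 0.249). Slc7a6 stood at 5.72 ± 0.568, 6.89 ± 3.04, 8.99 ± 1.63 and 9 ± 1.36 FPKM in the same order of groups, with differences of 0.56 ± 0.238 and 0.40 ± 0.238 that did not pass the test but passed without ΔIEC adjacent 2 (limma adjusted p 0.0216 and 0.0181). The summed light chains of Slc3a2, which take in these 5 and the untested Slc7a10 (at most 0.408% of the sum), went from 29.9 ± 3.86 FPKM in flox adjacent tissue to 56.1 ± 5.71 in flox tumours, and from 30.6 ± 6.48 to 52.2 ± 3.33 in ΔIEC mice. Slc7a11 made up 5.2% ± 0.875 of that sum in flox adjacent tissue and 21.9% ± 2.62 in flox tumours, and 8% ± 0.979 and 24.3% ± 8.88 in ΔIEC tissue. Slc7a7 went from 54.4% ± 0.736 to 28.4% ± 7.21 and from 47.4% ± 5.18 to 32% ± 7.73. The ratio of Slc3a2 to its summed light chains was 1.04 ± 0.2, 1.13 ± 0.229, 0.739 ± 0.0182 and 0.711 ± 0.0445. The highest ratio in a tumour was 0.758, and the lowest in adjacent tissue 0.899. These sums are of RNA and are given as a description, without a test. They take in non-coding transcripts of each gene. The coding form Slc7a11-201 held 70.6% to 79.3% of Slc7a11 in adjacent libraries and 58.8% to 71.4% in tumours.

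**Figure D3:**
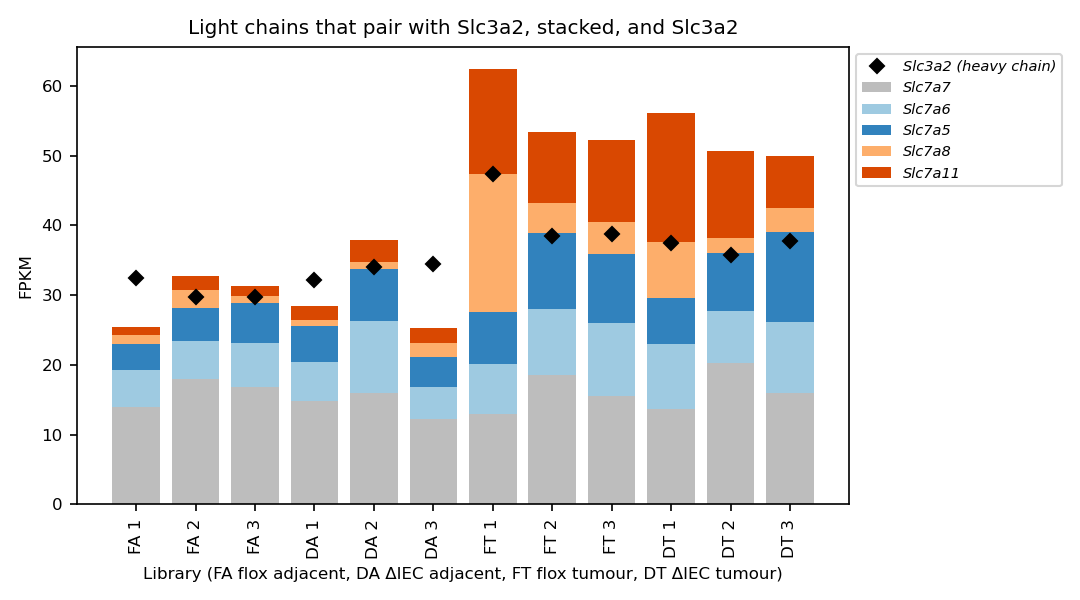
Stacked FPKM of 5 light chains that pair with Slc3a2, and Slc3a2 as black diamonds, in each of 12 libraries (FA flox adjacent, DA ΔIEC adjacent, FT flox tumour, DT ΔIEC tumour). Diamonds lie near or above the top of the stack in adjacent libraries and below it in all 6 tumours, where the Slc7a11 block is larger.

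The other heavy chain, Slc3a1, and its light chain Slc7a9 form the carrier that absorbs cystine and dibasic amino acids at the luminal face, and both fell. Slc3a1 was at 1.94, 52.4 and 32.1 FPKM in flox adjacent and 52.5, 17.9 and 8.63 in ΔIEC adjacent libraries, and at 0.369, 0.39, 0.242 and 0.149, 0.425, 0.573 in flox and ΔIEC tumours. Adjacent libraries spanned a wide range, with flox adjacent 1 the lowest, but none overlapped a tumour. Slc3a1 fell by 3.70 ± 0.946 in flox (limma adjusted p 0.0135) and by 3.96 ± 0.946 in ΔIEC mice (limma adjusted p 0.0127). The call was lost without flox adjacent 2 (-2.89, limma adjusted p 0.0533) or 3 (-3.23, 0.0503) and, in ΔIEC mice, without ΔIEC adjacent 1 (-3.30, 0.0507). Slc7a9 was at 3.98, 4.76 and 3.83 FPKM in flox adjacent, 6.21, 1.64 and 9.58 in ΔIEC adjacent, 0.545, 1.08 and 1.07 in flox tumour and 1.03, 0.947 and 2.07 in ΔIEC tumour libraries. ΔIEC adjacent 2 fell below ΔIEC tumour 3, so only the flox groups were apart. Slc7a9 fell by 1.46 ± 0.418 in flox (limma adjusted p 0.0211) and by 1.35 ± 0.418 in ΔIEC mice (limma adjusted p 0.0348). The flox call was lost without flox adjacent 2 (-1.38, limma adjusted p 0.0693) or flox tumour 1 (-1.32, 0.0705). The ΔIEC call was lost without ΔIEC adjacent 1 (-1.20, 0.105) or 3 (-0.93, 0.106) and without ΔIEC tumour 1 (-1.26, 0.105) or 2 (-1.23, 0.0984).

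Of the Slc1 family, the glutamate and aspartate carrier Slc1a1 and the glutamine exchanger Slc1a5 fell in both genotypes, and both calls held in all 12 fits that left out a library. Slc1a1 was at 16.9, 10.4 and 7.02 FPKM in flox adjacent, 20.1, 11.8 and 11.9 in ΔIEC adjacent, 4.28, 3.2 and 2.44 in flox tumour and 2.28, 3.73 and 7.07 in ΔIEC tumour libraries. Each genotype's groups were apart, though ΔIEC tumour 3 was just above flox adjacent 3. It fell by 1.48 ± 0.373 in flox (limma adjusted p 0.0122) and by 1.60 ± 0.373 in ΔIEC mice (limma adjusted p 0.011). Slc1a5 was at 76.6, 61.2 and 77.1 FPKM in flox adjacent, 80.9, 70.8 and 72 in ΔIEC adjacent, 39.4, 50.3 and 53.4 in flox tumour and 50.1, 45.7 and 48.7 in ΔIEC tumour libraries. Every adjacent library was above every tumour. Slc1a5 fell by 0.58 ± 0.134 (limma adjusted p 0.0081) and 0.62 ± 0.134 (limma adjusted p 0.00797). With protein-coding genes rescaled, the differences of Slc1a5 were -0.14 and -0.31 with limma adjusted p of 0.413 and 0.0953, which stood -0.54 and -0.58 from the median of protein-coding genes on that scale. The flox call was also lost under quantile normalization (-0.25, limma adjusted p 0.158). By transcript, the fall was called for Slc1a5-202, a form with a retained intron (-0.91 and -1.09, limma adjusted p 0.00164 and 0.00163), and not for the coding form Slc1a5-201 (-0.57 and -0.28, 0.132 and 0.471). The retained-intron form had 28.4 ± 4.32 and 34.5 ± 3.6 FPKM in adjacent tissue and the coding form 28.1 ± 11.2 and 19.5 ± 4.6, in flox and ΔIEC mice. Slc1a4, an exchanger of alanine, serine and cysteine, was at 15.5 ± 8.66, 12.3 ± 7.14, 11.1 ± 0.76 and 10.2 ± 0.862 FPKM in the 4 groups, with no call.

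**Figure D4:**
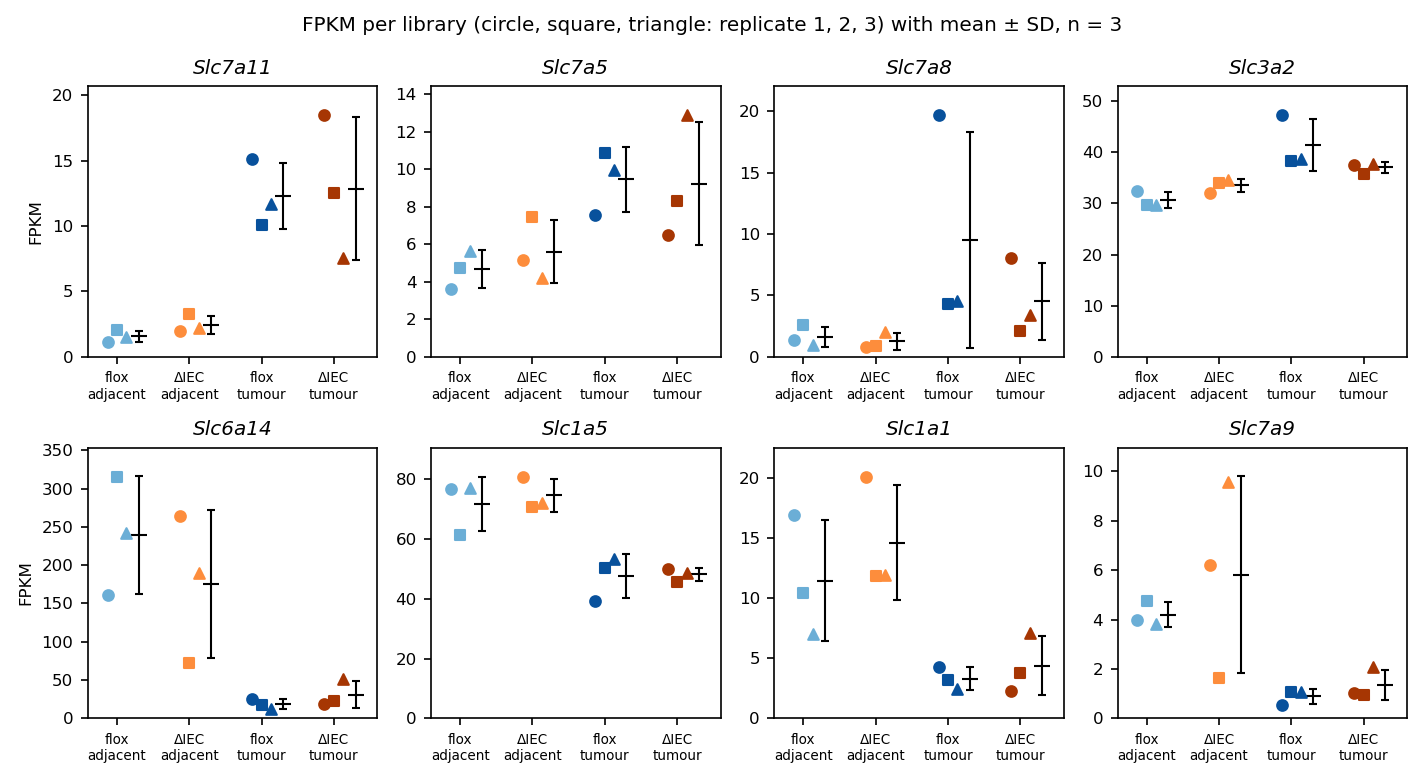
FPKM of 8 carriers in each library, 3 per group, with the mean ± SD beside the points. Slc7a11 and Slc3a2 lie higher in all 6 tumours than in all 6 adjacent libraries, Slc6a14 and Slc1a5 lie lower in all 6, and for Slc7a8 flox tumour 1 stands apart at 19.7 FPKM.

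Among the sodium-coupled amino acid carriers of the Slc6 family, Slc6a14, which takes up neutral and cationic amino acids, fell the most. It was at 161.5, 314.5 and 241.8 FPKM in flox adjacent, 264.2, 72.1 and 190.0 in ΔIEC adjacent, 25.2, 18 and 12.7 in flox tumour and 18.8, 22 and 50.9 in ΔIEC tumour libraries. ΔIEC adjacent 2 was the lowest adjacent library and ΔIEC tumour 3 the highest tumour, and they did not overlap. Slc6a14 fell by 3.61 ± 0.511 in flox (limma adjusted p 8.48e-04) and by 2.43 ± 0.511 in ΔIEC mice (limma adjusted p 0.00738), and both calls held in all 12 fits that left out a library. The interaction was 1.18 with a 95% interval of -0.43 to 2.79 (limma adjusted p 1). Absorptive colonocyte markers summed to at least 1679 FPKM in adjacent tissue and at most 251 in tumours. Of these 8 genes, 6 were called lower in flox tumours, and 5 lower and 1 higher (Ms4a10, chosen after its values were seen) in ΔIEC tumours; their part in the result was not tested. Slc6a9, a glycine carrier, went the other way: 6.87, 9.18 and 8.03 FPKM in flox adjacent, 9.07, 7.33 and 6.61 in ΔIEC adjacent, 12, 10.2 and 12.5 in flox tumour and 9.04, 10.8 and 10.3 in ΔIEC tumour libraries. The flox groups were apart, and in ΔIEC mice tumour 1 was just below adjacent 1. Slc6a9 rose by 0.48 ± 0.141 in flox mice (limma adjusted p 0.0243) and differed by 0.36 ± 0.141 in ΔIEC mice (limma adjusted p 0.0818). Its flox call was lost without flox adjacent 1 (0.38, limma adjusted p 0.0752) or 3 (0.48, 0.06) and without flox tumour 1 (0.45, 0.0721) or 3 (0.42, 0.0812), and the ΔIEC difference passed without ΔIEC adjacent 1 (0.0465). Slc6a20a, an imino acid carrier, had no call, and its level is uncertain because a close copy, Slc6a20b, lies beside it.

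Of the Slc6 carriers of other solutes, Slc6a8 had the highest mean of the set in both tumour groups. Slc6a8, for creatine, was at 180.6, 120.2 and 57.4 FPKM in flox adjacent, 136.9, 76.1 and 170.6 in ΔIEC adjacent, 66.5, 58.3 and 57.8 in flox tumour and 43.1, 51.2 and 80.5 in ΔIEC tumour libraries. Flox adjacent 3 was below all flox tumours, and ΔIEC tumour 3 was above ΔIEC adjacent 2. The differences of -0.82 ± 0.412 (limma adjusted p 0.145) and -1.09 ± 0.412 (limma adjusted p 0.0696) did not pass. They passed without flox adjacent 3 in flox mice (limma adjusted p 0.0291), and in ΔIEC mice without flox adjacent 1 (0.0452), flox adjacent 3 (0.032) or ΔIEC adjacent 2 (0.0318). By transcript, the coding form Slc6a8-204 fell by 1.42 (limma adjusted p 0.0439) in flox and 2.02 (0.0137) in ΔIEC mice. The most abundant form, Slc6a8-203, had -0.59 and -0.62 (limma adjusted p 0.362 and 0.346). Slc6a6, for taurine, had means of 67.2 ± 19 and 65.9 ± 8.67 FPKM in adjacent tissue and 49.1 ± 3.39 and 52.2 ± 8.97 in tumours, with no call. It passed in flox mice without flox adjacent 1 (limma adjusted p 0.0233). Slc6a4, which takes serotonin back into cells, was at 11.4, 4.17 and 2.81 FPKM in flox adjacent, 5.65, 2.48 and 11 in ΔIEC adjacent, 1.11, 1.21 and 0.293 in flox tumour and 0.23, 1.32 and 3.7 in ΔIEC tumour libraries. Flox adjacent 1 and ΔIEC adjacent 3 were high, and ΔIEC tumour 3 lay above ΔIEC adjacent 2. Slc6a4 fell by 1.78 ± 0.602 in flox mice (limma adjusted p 0.0417), with -1.46 ± 0.602 in ΔIEC mice (limma adjusted p 0.0927). That flox call was lost in 7 of 12 fits that left out a library, without flox adjacent 1 (-1.28, limma adjusted p 0.127) or 2 (-1.92, 0.0776), ΔIEC adjacent 1 (-1.78, 0.052), any flox tumour (-1.53 to -1.92, 0.0686 to 0.124) or ΔIEC tumour 2 (-1.78, 0.0571), and the ΔIEC difference passed without ΔIEC adjacent 2 (0.0466) or ΔIEC tumour 3 (0.0409). Enteroendocrine markers, 7 genes, summed to 175.4 to 322.6 FPKM in adjacent tissue and 8.33 to 66.7 in tumours, and their part in the result was not tested.

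The sodium-coupled neutral carriers of the Slc38 family moved in both directions. Slc38a1, for glutamine, was at 16.5, 13.9 and 17.1 FPKM in flox adjacent, 13.9, 16.6 and 14.9 in ΔIEC adjacent, 19.5, 24.4 and 23.6 in flox tumour and 21.9, 22.4 and 17.5 in ΔIEC tumour libraries. All tumours were above all adjacent libraries, by a narrow margin for ΔIEC tumour 3. It rose by 0.48 ± 0.132 in flox (limma adjusted p 0.0184) and by 0.42 ± 0.132 in ΔIEC mice (limma adjusted p 0.0389). The flox call was lost without flox adjacent 2 (0.39, limma adjusted p 0.0772) or flox tumour 2 (0.42, 0.0656) or 3 (0.44, 0.061), and the ΔIEC call without ΔIEC adjacent 1 (0.36, 0.116) or 3 (0.41, 0.0877), flox tumour 3 (0.42, 0.0514) or ΔIEC tumour 1 (0.37, 0.119) or 2 (0.35, 0.119). By transcript, which the authors' software estimates from shared reads, the rise was in 2 of its 3 main coding forms. Slc38a1-201 rose by 1.42 (limma adjusted p 0.00268) and 1.08 (0.0133) and Slc38a1-203 by 1.02 (0.00426) and 0.75 (0.0225), in flox and ΔIEC mice. The most abundant form, Slc38a1-202, had -0.27 and -0.13 (limma adjusted p 0.374 and 0.695), and its share of the gene went from 56.7% to 75% in adjacent libraries to 32.6% to 50.2% in tumours.

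Slc38a2, which imports glutamine and rises in many cells when amino acids are scarce, had 45.1 ± 2.48 and 46.7 ± 5.66 FPKM in adjacent tissue and 54.3 ± 3.41 and 55.5 ± 8.75 in tumours. Its differences of 0.26 ± 0.128 and 0.24 ± 0.128 did not pass (limma adjusted p 0.133 and 0.179); with protein-coding genes rescaled they were 0.70 and 0.55 and passed (limma adjusted p 9.46e-04 and 0.00464), 0.31 and 0.28 above the median of protein-coding genes on that scale. Slc38a4, a carrier of neutral and cationic amino acids, was at 0.071, 4.09 and 0.015 FPKM in flox adjacent, 0.146, 0.0849 and 0.0529 in ΔIEC adjacent, 9.23, 4.14 and 7.71 in flox tumour and 8.55, 1.89 and 1.13 in ΔIEC tumour libraries. Flox adjacent 2 was just below flox tumour 2, and the other adjacent libraries were near 0. Slc38a4 rose by 2.12 ± 0.668 in flox mice (limma adjusted p 0.0317), with 1.83 ± 0.668 in ΔIEC mice (limma adjusted p 0.0633). The flox call was lost without flox adjacent 1 (1.76, limma adjusted p 0.0913) or 3 (1.72, 0.107) and without flox tumour 1 (1.92, 0.0942) or 3 (2.04, 0.0825), and the ΔIEC difference passed without flox adjacent 2 (0.024) or ΔIEC tumour 3 (0.044). Slc38a10 was at 35.7, 37.4 and 39 FPKM in flox adjacent, 41.6, 41.9 and 36.3 in ΔIEC adjacent, 29.7, 32.6 and 29.1 in flox tumour and 23.9, 29.1 and 30.8 in ΔIEC tumour libraries, and all tumours were below all adjacent libraries. It fell by 0.51 ± 0.109 in ΔIEC mice (limma adjusted p 0.00789), with -0.29 ± 0.109 in flox mice (limma adjusted p 0.0638, and 0.0357 without ΔIEC tumour 1). With protein-coding genes rescaled, Slc38a10 stood at 0.15 in flox and -0.20 in ΔIEC mice (limma adjusted p 0.348 and 0.239). The ΔIEC call of Slc38a10 was also lost under quantile normalization (-0.34, limma adjusted p 0.0554) and with only the groups compared (-0.51, 0.0579). Slc38a9, the lysosomal arginine sensor of the mTORC1 pathway, was between 1.05 and 3.09 FPKM everywhere, with 0.06 ± 0.253 and -0.25 ± 0.253; rescaled, its flox difference was 0.37 (limma adjusted p 0.192).

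Among carriers of cationic amino acids, Slc7a1, the general arginine importer, did not pass in either genotype, with 9.51 ± 1.75 and 10.1 ± 1.8 FPKM in adjacent tissue and 11.2 ± 1.65 and 10.1 ± 2.61 in tumours. Rescaled, it was called in flox mice (0.63, limma adjusted p 0.0216). Slc36a1, a proton-coupled carrier of lysosomes and the luminal membrane, was at 44.9, 9.17 and 10.7 FPKM in flox adjacent, 13.9, 10.7 and 46.8 in ΔIEC adjacent, 10.6, 15.2 and 8.86 in flox tumour and 5.21, 11.6 and 20.8 in ΔIEC tumour libraries. Flox adjacent 1 and ΔIEC adjacent 3 stood far above every other library, and the differences of -0.52 ± 0.695 and -0.76 ± 0.695 did not pass.

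The following members had little RNA and were singled out after their values were seen. Slc7a2, an arginine carrier known from macrophages, was at 0.173 to 0.48 FPKM in adjacent libraries and 1.17 to 2 in tumours, without overlap. It rose by 1.14 ± 0.146 in flox (limma adjusted p 5.71e-04) and 0.83 ± 0.146 in ΔIEC mice (limma adjusted p 0.00337), and held in all 12 fits that left out a library. Macrophage markers, 6 genes, summed to 17 to 83.2 FPKM in adjacent tissue and 54.6 to 107.6 in tumours, and their part in the result was not tested. Slc38a11 fell by 1.04 ± 0.179 (limma adjusted p 0.00196) and 1.01 ± 0.179 (limma adjusted p 0.00344), from at least 1.69 to at most 0.783 FPKM. The proline carrier Slc6a7 fell by 0.75 ± 0.213 (limma adjusted p 0.0203) and 0.80 ± 0.213 (limma adjusted p 0.0185), but was called in 8 of 12 and 9 of 12 fits that left out a library, with limma adjusted p up to 0.0725 and 0.0727. The betaine carrier Slc6a12 rose by 1.16 ± 0.339 in flox mice (limma adjusted p 0.023; up to 0.0844 with a library left out), and Slc7a15 by 1.06 ± 0.297 in ΔIEC mice (limma adjusted p 0.0236; up to 0.081). By transcript, the ΔIEC rise of Slc7a15 was called for the non-coding Slc7a15-203 (1.07, limma adjusted p 0.0248). It was not called for the coding form Slc7a15-201 (0.43, limma adjusted p 0.256).

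Leaving out single libraries separated the calls. A tumour difference comes from the libraries of its own genotype. Leaving out a library of the other genotype changes the estimated spread and not the difference, so those fits are a weaker check. Of 17 flox calls, 7 held in all 12 such fits, for Slc7a11, Slc7a2, Slc3a2, Slc6a14, Slc1a1, Slc1a5 and Slc38a11. Of 12 ΔIEC calls, 7 did so as well, with Slc38a10 in place of Slc3a2. Of these, Slc1a5 in both genotypes and Slc38a10 in ΔIEC mice lost a call under other settings, as given above. For these counts and those that follow, no share over all genes is given, so they do not compare the members with other genes. Without the 3 adjacent libraries that stood apart, an alternative chosen after seeing the data, 15 members were called in flox and 10 in ΔIEC tumours, of which 11 and 9 were shared with the calls from all 12 libraries. The flox calls of Slc38a4, Slc6a4, Slc6a7, Slc6a9, Slc7a5 and Slc7a8 and the ΔIEC calls of Slc38a1, Slc6a7 and Slc7a15 were lost there. Slc1a4 was called lower in both genotypes (-0.75, limma adjusted p 0.0154, and -0.73, limma adjusted p 0.0455). In flox mice Slc43a3, a purine nucleobase carrier, was called higher (1.27, limma adjusted p 0.0227), and Slc6a6 and Slc7a4 lower (limma adjusted p 0.0239 and 0.0188).

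Several carriers spread widely within adjacent tissue, some along the 3 libraries that stood apart. Slc43a3 was at 6.95, 13.1 and 12 FPKM in flox adjacent 1 and ΔIEC adjacent 2 and 3, and at 1.83 to 2.78 in the other adjacent libraries. Slc3a1 was at 1.94 to 17.9 FPKM in the same 3 libraries and at 32.1 to 52.5 in the other adjacent libraries. Slc1a4 was low in flox adjacent 1 and ΔIEC adjacent 3, at 6.84 and 4.17 FPKM, where Slc36a1 and Slc6a4 were high, and at 15.2 to 24.2 in the remaining adjacent libraries. The labels give no batch that matches these libraries, and what sets them apart was not tested.

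**Figure D5:**
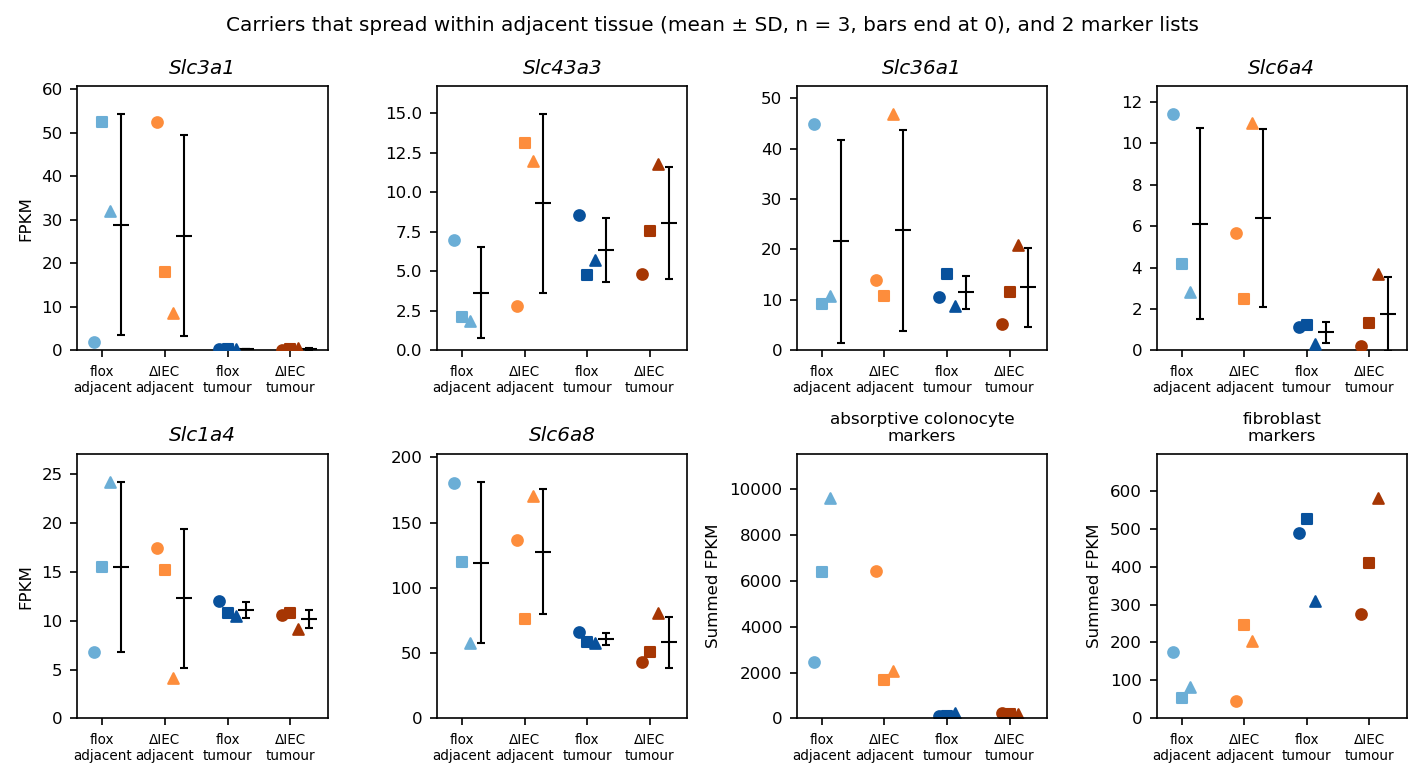
FPKM of 6 carriers in each library with the mean ± SD of 3, and summed FPKM of absorptive colonocyte and fibroblast markers. Slc36a1 and Slc6a4 are high in flox adjacent 1 and ΔIEC adjacent 3, where Slc1a4 is low; Slc43a3 is high and Slc3a1 low in the 3 adjacent libraries with fewer colonocyte and more fibroblast marker transcripts.

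No carrier was called between the genotypes. For ΔIEC against flox adjacent tissue, ΔIEC against flox tumours and the interaction, limma called 0 of 37 members and 0% of all genes tested, with or without trended and robust moderation. At an unadjusted p below 0.05, 0 members were found in each comparison, against 702, 317 and 448 of the 16970 genes. Trappc4 itself did not pass over all genes, with -0.59 ± 0.115 in adjacent tissue (unadjusted p 4.31e-04, limma adjusted p 0.931) and -0.70 ± 0.115 in tumours (1.04e-04, limma adjusted p 1). Without ΔIEC adjacent 1, 299 genes were called in adjacent tissue, 0 of them members. The members' median difference was 0.06 in adjacent tissue, -0.07 in tumours and -0.12 for the interaction, and that of all genes -0.03, -0.01 and 0.01. In adjacent tissue 0 members had libraries of the genotypes apart, against 2.56% of all genes higher and 5.14% lower in ΔIEC mice. The smallest unadjusted p there was that of Slc43a3, with a difference of 1.10 and a 95% interval of -0.13 to 2.33 (p 0.074, limma adjusted p 0.931). In tumours 0 members lay apart as higher (3.03% of all genes) and 2 as lower (3.74%), Slc7a2 at 1.42, 1.17 and 1.68 FPKM in ΔIEC against 1.99, 1.71 and 2 in flox tumours, and Slc3a2 as given above. Their differences were -0.27 (95% interval -0.59 to 0.06) and -0.15 (-0.37 to 0.06), each with a limma adjusted p of 1. The intervals bound what could have gone unseen: for Slc7a11 the genotype difference was 0.42 (-0.20 to 1.05) in adjacent tissue and -0.01 (-0.63 to 0.62) in tumours, for Slc1a5 0.06 (-0.23 to 0.36) and 0.02 (-0.27 to 0.32), but for Slc3a1 0.30 (-1.80 to 2.41) and 0.04 (-2.07 to 2.15).

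The 27 members that were not tested had little RNA in this tissue. Of these, 25 stayed below 1 FPKM in all libraries, 11 of them below 0.1, and Slc6a21 and Slc7a12 were listed at 0 throughout. Slc6a19, the main neutral amino acid carrier of the small intestine, was at 0.22, 0.721, 0.435 and 1.56, 0.267, 0.558 FPKM in flox and ΔIEC adjacent libraries and at 0 to 0.15 in tumours. Slc6a13 was at 0 to 0.104 FPKM in adjacent tissue and 0.358 to 1.42 in tumours, which did not overlap. The others included Slc1a2, Slc1a3, Slc1a6, Slc1a7, Slc36a2, Slc36a3, Slc38a3, Slc38a5, Slc38a8, Slc6a2, Slc6a3, Slc6a5, Slc6a11, Slc6a15, Slc6a16, Slc6a17, Slc6a18, Slc6a20b, Slc7a3, Slc7a10, Slc7a13 and Slc7a14, among them the carriers of brain transmitters. By family, 8 of 21 Slc6 genes were tested, and 8 of 11 Slc38 genes. Tested members without a call in either genotype, on the scale without rescaling, also included Slc7a4, Slc36a4, Slc38a6, Slc38a7, Slc43a1, Slc43a2 and Slc7a6os.

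Partner and pathway genes of the carriers were then counted by list, on the scale without rescaling. Their differences, counts and medians with protein-coding genes rescaled are not given. On that scale the median of the genes tested was 0.40 in flox and 0.27 in ΔIEC mice, so the balance of rises and falls in the lists may differ there. Of 31 tested genes of the amino acid response, which is switched on by scarce amino acids, 8 rose and 2 fell in flox tumours, and 7 rose and 3 fell in ΔIEC tumours, with medians of 0.21 and 0.10. Psat1, of serine synthesis, rose by 1.29 ± 0.273 (limma adjusted p 0.00544) and 1.21 ± 0.273 (0.00951), while Cth, which makes cysteine, fell by 2.98 ± 0.346 (limma adjusted p 4.19e-04) and 2.43 ± 0.346 (0.00164). Among 14 glutathione and antioxidant genes, 3 rose and 7 fell in flox tumours and 2 rose and 3 fell in ΔIEC tumours, with medians of -0.44 and -0.25. Hmox1, which breaks down haem, rose by 2.70 ± 0.293 (limma adjusted p 3.48e-04) and 2.16 ± 0.293 (0.00141), and the quinone reductase Nqo1 fell by 1.55 ± 0.429 (0.0187) and 1.26 ± 0.429 (0.0498). Of 24 tested genes of amino acid sensing by mTORC1, 2 rose and 5 fell in flox tumours and 3 rose and 6 fell in ΔIEC tumours; the Ragulator subunit Lamtor2 fell by 0.72 ± 0.095 (limma adjusted p 6.16e-04) and 0.44 ± 0.095 (0.008).

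Around arginine, 4 of 14 polyamine and arginine genes rose and 2 fell in flox tumours, and 5 rose and 2 fell in ΔIEC tumours. Arg1, which splits arginine into ornithine and urea, rose by 3.56 ± 0.417 (limma adjusted p 4.28e-04) and 3.81 ± 0.417 (7.95e-04). Around glutamine, 1 of 9 genes rose and 2 fell in flox tumours, and 1 rose and 1 fell in ΔIEC tumours; the alanine aminotransferase Gpt fell by 3.46 ± 0.472 (limma adjusted p 7.19e-04) and 2.82 ± 0.472 (0.00278). Of 5 serotonin genes, 1 rose and 2 fell in each genotype. Tph1, which makes serotonin in enterochromaffin cells, fell by 3.70 ± 0.566 (limma adjusted p 0.00117) and 1.93 ± 0.566 (0.0291), and Maoa, which degrades it, fell by 3.03 ± 0.329 (3.48e-04) and 2.47 ± 0.329 (0.00134). Among 8 tested partners and other carriers, 2 rose and 3 fell in flox tumours and 2 rose and 1 fell in ΔIEC tumours. Slc16a10, a carrier of aromatic amino acids, rose by 2.02 ± 0.468 (limma adjusted p 0.00825) and 1.61 ± 0.468 (0.0277), and Cd44, a membrane partner of the cystine exchanger, by 1.11 ± 0.299 (0.0159) and 1.54 ± 0.299 (0.00497). The lists are set beside the 36.3% and 29.4% of all genes called, and no list was tested as a set.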

How the data were processed

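The 12 libraries were strand-specific, prepared by a TruSeq total RNA protocol per the labels' protocols. FastQC, STAR 2.5, Cuffnorm and GRCm38 are named per the submitters' processing notes; their settings were not stated there. The authors deposited log2 values per transcript, which the values show to be log2(FPKM + 1). The log2 was undone to give FPKM, which were added up over the transcripts of each gene: of 123062 transcripts, 118004 (95.9%) matched GENCODE M21 on GRCm38, which gave 48448 genes, and 0 columns stayed unmatched. The 64 members have 329 transcripts; 3 further symbols that fit the pattern were not protein-coding. Small RNAs took 15.5% to 26.0% of a library's FPKM, which affects its other values.

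The test took in every gene that reached 1 FPKM in 3 or more libraries. It used limma 3.58.1 in R 4.3.3, with trended and robust empirical Bayes moderation, on log2(FPKM + 1), with a pseudocount of 1, all 12 libraries and 1 mean per group, which leaves 8 residual degrees of freedom. Differences are therefore on the log2(FPKM + 1) scale, which understates those of low genes. The limma p was two-sided and Benjamini-Hochberg adjusted over all 16970 genes within a comparison, with calls below 0.05. Tumour contrasts of the genotypes share no libraries; genotype contrasts and the interaction reuse them. The labels do not say that replicates are separate animals, so p-values measure the spread between libraries, which may be technical.

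Named genes were, per comparison, called members with a mean of at least 5 FPKM in the higher group (at most 14), members with a group mean of at least 20, always Slc7a5, Slc3a2, Slc7a11, Slc1a5, Slc6a14, Slc6a19, Slc7a1, Slc38a2, Slc7a9, Slc3a1, Slc6a4, Slc38a9, Slc36a1 and Trappc4, and up to 4 called genes per pathway list; other members are named outside this rule, after their values were seen. Members, lists and tests were chosen with earlier results of these data known. Some items are not reported here. The procedure was tested on simulated data. Alternatives were another pseudocount (0.1), no filter, a filter at 5 FPKM, quantile normalization, median centring, protein-coding genes rescaled, transcripts, only the groups compared, plain moderation, 2 kinds of replicate block, each library left out and, chosen after seeing the data, 3 adjacent libraries left out together. Motifs were searched in RefSeq windows of 250 bases before gene starts; 46 members had an entry and 18 did not. Figures used Python 3.11.15 and matplotlib 3.10.9.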

Additional observations from a re-analysis of the deposited data

How the results depend on the processing

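The number of members called fell from 17 to 11 in flox and from 12 to 7 in ΔIEC tumours when the filter was set at 5 FPKM in 3 libraries, where 25 members are tested. Each remaining call was among those made at 1 FPKM, and every lost call was of a member no longer tested. With a library left out the number called ranged from 10 to 18 in flox tumours, with 10 without flox adjacent 2 and 11 without flox tumour 1 or flox tumour 3, and from 8 to 16 in ΔIEC tumours. Other alternatives gave 13 to 21 and 8 to 17, and 0 members were called in every alternative for both genotype comparisons and the interaction, which has no fit with only the groups compared. No called difference of a named member changed sign; called values missed the threshold 45 times in flox and 20 times in ΔIEC tumours over the alternatives, and values without a call passed it 10 and 17 times. With no filter, Slc38a4, Slc6a4 and Slc7a8 lost their flox call and Slc38a1 and Slc7a9 their ΔIEC call; with only the groups compared, Slc38a4 and Slc7a8 lost the flox call and Slc38a1, Slc38a10, Slc6a7 and Slc7a9 the ΔIEC call. With a replicate block by title number, 13 members were called in flox tumours, losing Slc38a4, Slc6a12, Slc6a9 and Slc7a8, and 12 in ΔIEC tumours, losing Slc38a1 and gaining Slc6a4. Deviations of same-numbered adjacent and tumour libraries correlated at -0.19 to 0.19, and those of same-numbered flox and ΔIEC libraries at -0.40 to 0.11. With 3 libraries per group, these values cannot decide whether libraries were paired by animal. Same-numbered adjacent and tumour libraries share a code in the labels, except ΔIEC adjacent 1 and ΔIEC tumour 1. Whether a shared code marks an animal is not stated there, and the main fit used no pairing. A replicate block by the code in the labels, with a correlation of 0.0291, gave 17 and 12. FPKM carry no depth, so no detection limit can be given for the members below 1 FPKM; with no filter on low values, Slc6a13 was called in both genotypes.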
